A study of Homo sapiens with 4 samples.

Results

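The 36 genes described here build, trim and modify the sialic acid and fucose residues at the outer ends of cell-surface glycans. They were given as a list of gene names. The other 35 were named by function, with earlier results of these data known. WSCD1 was added because its transcript was higher in vemurafenib-resistant cells. Its difference between the groups is therefore a description with no test. All 36 were found among 62649 gene identifiers, and 32 had enough reads to be tested.

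Sialic acid is made in the cytosol, activated to its CMP form and carried into the Golgi, where sialyltransferases add it in an α2,3, α2,6 or α2,8 linkage. Fucose is added from GDP-fucose, either to glycan branches, to the glycan core or directly to protein. Both sugars change how cell-surface glycoproteins and gangliosides are read by lectins, and lectin binding is one of the measurements of the series, which was not analysed here. WSCD1 and WSCD2 encode sulfotransferases that act on sialic acid.

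A375 is a human melanoma cell line with an activating BRAF mutation. Parental cells gave the control libraries (2), and cells grown under vemurafenib, an inhibitor of the mutant kinase, raised each week from 0.1 to 6.4 µM, gave the resistant libraries (2). The labels state neither whether vemurafenib was present at harvest nor whether the resistant cells were a pool or a clone, and they call both groups skin melanoma cells of the one line. The series text calls the libraries biological replicates, but nothing says that the 2 libraries of a group came from separate cultures. A p-value here measures how far these libraries differ, and that spread may be technical.

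Gene counts totalled between 68022689 and 87178097 per library. Every count of control replicate 1 was even (0 odd counts), and the cause was not tested; halving them is among the alternatives. The lineage genes SOX10 (704 to 1149 CPM, gene counts scaled by the library's total after TMM adjustment) and ERBB3 (304 to 432 CPM) were abundant in all 4 libraries, while SOX9 stood at 28.4 and 20.03 CPM in the controls and 2.69 and 4.16 CPM in resistant cells, and PMEL, MLANA, TYR and DCT lay between 0.0985 and 2.34 CPM. Markers of other cells summed to 10.4 to 14.9 CPM for 5 fibroblast genes, 2.30 to 3.47 CPM for 3 endothelial genes and 0.838 to 2.14 CPM for 5 leukocyte genes, with CD3E at 0 in 3 libraries. Of the 4 keratinocyte genes KRT10 made up nearly all of the sum (49.2 to 89.5 CPM), and KRT1 was at 0 in 2 libraries. Of these 17 genes of other cells, 6 lay lower in both resistant libraries than in both controls (DCN, LUM, PDGFRA, KRT14, CDH5 and LYZ), against 22.2% of all tested genes, and 0 lay higher; among the 9 melanoma genes 2 lay lower (SOX9 and DCT) and 0 higher. MITF, also among the 9, had 42.2 and 22.8 CPM in the controls and 12.3 and 23.4 CPM in resistant cells. S100B had 11.4 and 24.3 CPM against 15.1 and 17.3, and the groups overlapped for both genes. The part of these markers in the results was not tested. In bulk RNA, fewer cells of a kind and less RNA per cell cannot be told apart.

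WSCD1 (ENSG00000179314.16, GRCh38 chromosome 17, 6057807 to 6124427, plus strand) had 104 and 618 counts in control replicates 1 and 2 and 4092 and 5628 counts in resistant replicates 1 and 2. These correspond to 1.45 and 7.14 CPM for the controls, against 57.6 and 68.1 CPM for resistant cells. Both resistant libraries lay above both controls, and the lower resistant library was 8.07-fold above the higher control. The fitted log2 fold change was 3.86 ± 0.63 (SE), or 14.5-fold, resistant over control, with 2 libraries per group. The controls themselves differed 4.91-fold, against 1.18-fold between the resistant libraries. A control gap of that size or larger occurred in 92 of the 15573 tested genes that averaged 1 CPM or more (0.591%). The log2 fold change of WSCD1 was 3.14 with control replicate 1 left out and 5.44 with control replicate 2 left out.

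The level of WSCD1 relative to the other genes can be read per length, as RPKM (CPM divided by the exonic length in kilobases). By RPKM it ranked 29 and 25 of the 36 genes in control replicates 1 and 2, and 11 and 10 in resistant replicates 1 and 2. Its RPKM of 8.02 and 9.48 in resistant cells stood beside 11.0 and 9.63 for the core fucosyltransferase gene FUT8 in the same libraries. The paralogue WSCD2 (chromosome 12) had 4, 2, 0 and 2 counts in control replicates 1 and 2 and resistant replicates 1 and 2. A count of 3 corresponds to 0.0346 to 0.0422 CPM, so WSCD2 was at or near the limit of detection in each library and no fold change is given.

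No other gene around WSCD1 had a comparable difference. Among the 5 nearest tested genes on either side, those before it had log2 fold changes from 0.03 for NLRP1, an inflammasome sensor gene, to 0.54 for an unnamed gene of under 1 CPM. Those after it ranged from -1.24 ± 0.32 (SE) for PIMREG, a gene of mitosis with 37.8 and 22.6 CPM in the controls and 9.66 and 15.9 in resistant cells (edgeR adjusted p = 0.132), to 0.22 for KIAA0753. None of the 10 passed the edgeR threshold of 0.05 adjusted over all genes, and 1 had an unadjusted p under 0.05. An overlapping gene model covers 5.9% of the exonic bases of WSCD1 and received 0 to 2 counts per library.

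**Figure D1:**
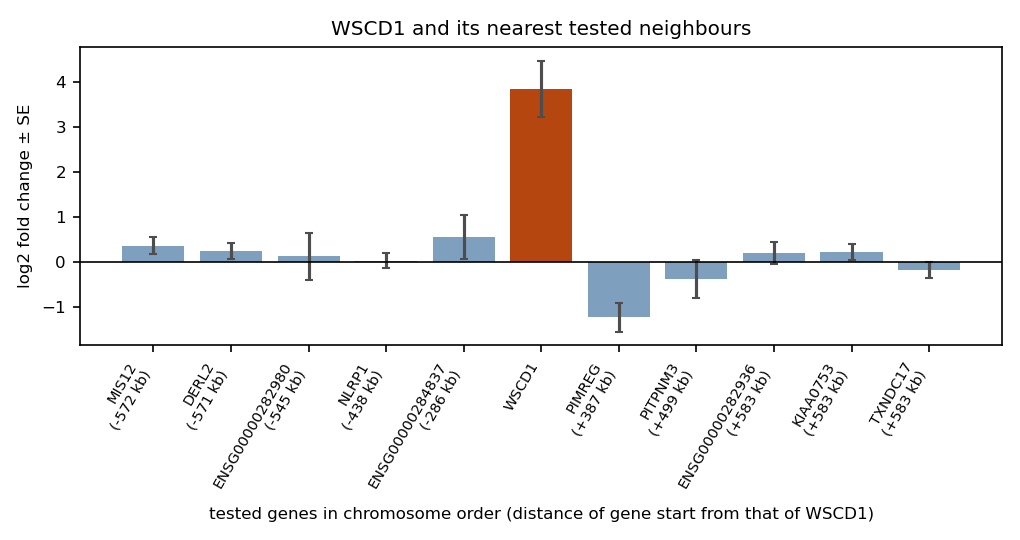
Fitted log2 fold change (resistant over control, vertical axis; bars, SE as whiskers) of WSCD1 and the 5 nearest tested genes on either side in chromosome order, with the distance between gene starts in kb. WSCD1, chosen for its rise, stands at 3.86, and its neighbours lie between -1.24 and 0.54.

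The promoter windows below show the member with the highest fold change and FUT9, a fucosyltransferase gene outside the member list that was lower in resistant cells (described further on). Both are from RefSeq on GRCh38.p14, plus strand, from 250 bases before to 50 after the annotated start, at chr17:6068866-6069165 and chr6:96015724-96016023. The RefSeq start of WSCD1 lies inside the gene model that was counted, downstream of that model's own start. Capitals mark CG dinucleotides, the sites at which DNA can be methylated; methylation was not measured.
WSCD1: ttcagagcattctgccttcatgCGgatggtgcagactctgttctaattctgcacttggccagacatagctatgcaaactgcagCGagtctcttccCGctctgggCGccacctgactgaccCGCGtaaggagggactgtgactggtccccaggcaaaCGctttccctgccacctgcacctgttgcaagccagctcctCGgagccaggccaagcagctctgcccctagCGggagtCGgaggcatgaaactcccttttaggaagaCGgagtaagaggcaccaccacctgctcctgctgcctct
FUT9: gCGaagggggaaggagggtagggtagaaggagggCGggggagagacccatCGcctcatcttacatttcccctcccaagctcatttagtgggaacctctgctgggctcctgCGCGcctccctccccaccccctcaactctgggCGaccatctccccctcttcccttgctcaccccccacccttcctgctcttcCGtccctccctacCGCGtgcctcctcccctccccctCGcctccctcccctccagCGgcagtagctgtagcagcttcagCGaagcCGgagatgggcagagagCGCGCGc
The WSCD1 window holds 11 CG dinucleotides and the FUT9 window 16, against a median of 14 in 27305 promoter windows of 300 bases and of 23 in the 30 members with a window. The GC box GGGCGG, searched on both strands, is not in the WSCD1 window and is in the FUT9 window 1 time. It occurs in 44.6% of all windows and in 20 of the 30 members (66.7%).

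None of the 31 other tested members differed between the groups by edgeR's quasi-likelihood test with Benjamini-Hochberg adjustment over all genes, where 1.09% of 24961 tested genes passed at 0.05 (0.577% higher and 0.513% lower). At an unadjusted p under 0.05, 7 of the 31 (22.6%) stood out, against 13.5% of all genes, and 3 of 20 (15%) against 15.3% among genes averaging 10 CPM or more. The 3 with higher values in resistant cells (background 6.14%) were ST3GAL1, ST6GAL1 and FUT3, and the 4 with lower values (background 7.32%) were ST3GAL6, ST6GALNAC2, ST6GALNAC5 and FUCA1. With DESeq2 2 of the 31 passed (6.45%), both lower, against 5.2% of all genes. The median log2 fold change of the 31 was -0.05 (interquartile range -0.29 to 0.31), beside 0.01 over all genes (-0.31 to 0.30).

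The 2 groups did not overlap in 20 of the 31 (64.5%), 10 above and 10 below the controls, against 44.6% of all tested genes (22.4% above and 22.2% below). In 17 of the 31 (54.8%, against 30.7% of all genes) control replicate 2 lay between control replicate 1 and both resistant libraries. Among the 20 members averaging 10 CPM or more, the groups did not overlap in 13 (65%, background 46.8%) and control replicate 2 lay between in 12 (60%, background 34.4%). In those genes the size of the difference depends on which control is used. For 20 of the 31 the 95% interval of the log2 fold change lay within -1 and 1, that is, within a 2-fold difference. This held for 42.6% of all genes, but the median SE was 0.228 for the 31 and 0.325 for all genes. The comparison is therefore not at like precision. Among genes averaging 10 CPM or more, the interquartile range of the log2 fold change was -0.17 to 0.31 for the 20 members. Over all such genes it was -0.22 to 0.17.

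**Figure D2:**
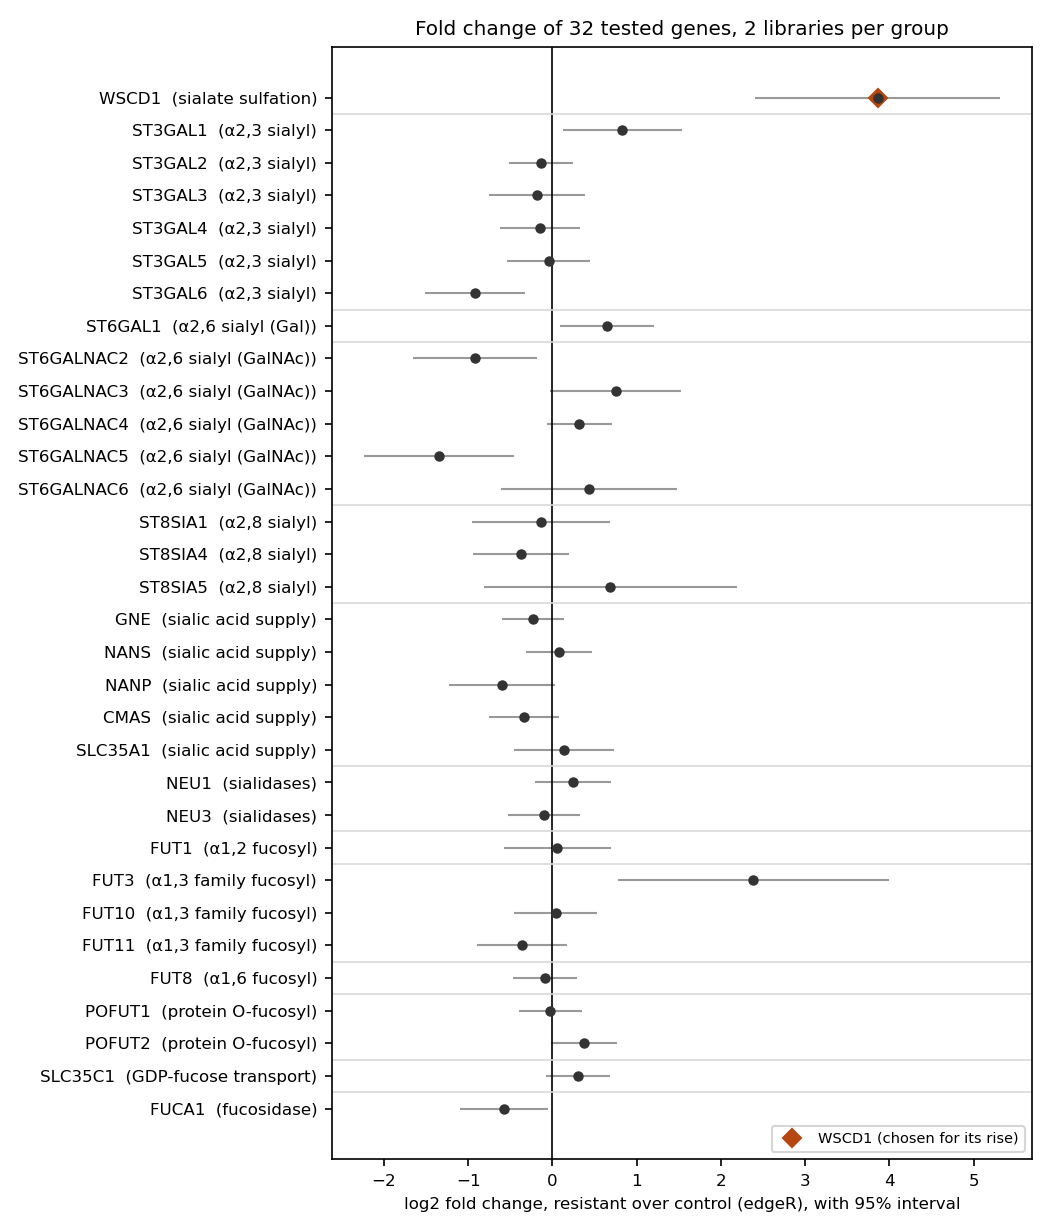
Fitted log2 fold change, resistant over control, of the 32 tested members (points) with its 95% interval from the edgeR fit (lines), grouped by role, 2 libraries per group. WSCD1, at 3.86, was chosen for its rise; of the other 31, the intervals of 20 lie within -1 and 1.

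Enzymes that add sialic acid in the α2,3 linkage made up most of the sialyltransferase signal. ST3GAL4, which caps lactosamine chains, was the most abundant of all 36 genes, with 75.8 and 95.1 RPKM in control replicates 1 and 2 and 67.7 and 86.2 RPKM in resistant replicates 1 and 2. The groups overlapped, and its log2 fold change was -0.15 (95% interval -0.63 to 0.32, edgeR adjusted p = 0.829). ST3GAL4 alone supplied 69.0% and 69.1% of the summed RPKM of 16 sialyltransferase members in the controls and 58.9% and 64.1% in resistant cells.

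ST3GAL1, which caps the core of mucin-type O-glycans, had 41.4 and 84.3 CPM in control replicates 1 and 2 and 106 and 117 CPM in resistant replicates 1 and 2. Both resistant libraries were above both controls, but control replicate 2 was closer to them than to control replicate 1. The log2 fold change was 0.83 ± 0.31 (SE, edgeR adjusted p = 0.286), 0.41 without control replicate 1 and 1.44 without control replicate 2. Without control replicate 2, and without a filter on low counts, ST3GAL1 passed edgeR (adjusted p = 0.001 and 0.00169).

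ST3GAL6, another enzyme of lactosamine chains, had 8.10 and 7.0 CPM in the controls and 4.40 and 3.59 CPM in resistant cells. The groups did not overlap, and the controls lay close together. Its log2 fold change was -0.92 ± 0.26 (SE, edgeR adjusted p = 0.156), and DESeq2 called it lower (adjusted p = 0.0397). ST3GAL6 (98732236 to 98821201) lies in the stretch of chromosome 3 from 0 to 100 Mb, where 402 of 435 tested genes of 1 CPM or more were below 0 on the log2 scale (median -0.59). Counted from the lowest, ST3GAL6 ranked 80 among them. Its exons overlap other genes over 12.1% of their length, among them DCBLD2, which had 83290 and 86878 counts in the controls and 35839 and 47912 in resistant cells. By the counting program's defaults, reads in the shared stretches went to neither gene.

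The other α2,3 genes did not pass at either level. ST3GAL2, which acts mainly on gangliosides, had 56.3 and 56.0 CPM in the controls and 54.3 and 48.2 in resistant cells (log2 -0.13, 95% interval -0.51 to 0.25). ST3GAL5, the GM3 synthase gene that starts most gangliosides, had 28.2 and 27.4 CPM against 22.2 and 31.5 (log2 -0.05, -0.54 to 0.45). ST3GAL3 had 5.93 to 8.01 CPM (log2 -0.18, -0.76 to 0.39), spread over a gene model of 19448 exonic bases that lowers its RPKM.

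ST6GAL1 caps N-glycan branches with α2,6-linked sialic acid. It had 46.0 and 75.3 CPM in control replicates 1 and 2 and 92.6 and 97.1 CPM in resistant replicates 1 and 2. As with ST3GAL1, both resistant libraries were above both controls and control replicate 2 was the higher control. The log2 fold change was 0.64 ± 0.24 (SE, edgeR adjusted p = 0.29), 0.33 without control replicate 1 and 1.05 without control replicate 2. ST6GAL1 passed edgeR without control replicate 2 (adjusted p = 0.00827) and without a filter on low counts (adjusted p = 0.0335). ST6GAL2 had 4, 4, 0 and 1 counts, at or near the limit of detection.

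Relative to ST3GAL4 in the same library, ST6GAL1 stood at an RPKM ratio of 0.0545 and 0.0711 in the controls and 0.123 and 0.101 in resistant cells. The α2,6 genes acting on galactose supplied 3.77% and 4.92% of the summed sialyltransferase RPKM in the controls and 7.23% and 6.49% in resistant cells. The α2,3 genes supplied 81.6% and 82.5% in the controls and 76.3% and 79.7% in resistant cells. Neither of these shares overlapped between the groups. The summed RPKM itself was apart for the α2,6 genes acting on galactose (4.14 and 6.77, 8.31 and 8.72). For the α2,3 genes it overlapped (89.6 and 114, 87.7 and 107). Nearly all of the first sum was ST6GAL1 (4.13 and 6.76, 8.31 and 8.72). Its sum, share and ratio therefore repeat the difference of ST6GAL1 and add nothing to it. Shares within a family sum to a fixed total, so the α2,3 share is not a separate result either. With 2 libraries per group an exact two-sided permutation test cannot give a p below 0.333, so none is reported. The share of the α2,6 genes acting on GalNAc overlapped between the groups (13.1% and 11.3%, 15.4% and 12.7%), and that of the α2,8 genes, from 1.2% to 1.5% in the controls, was 1.03% and 1.07% in resistant cells, without overlap. Among the fucosyltransferases, the shares of the α1,3 family (15.3% and 14.9%, 14.5% and 12.5%) did not overlap either. Nor did those of the protein O-fucosyltransferases (60.5% and 59.0%, 61.1% and 63.8%), while those of FUT1 and FUT8 did. Most of the RPKM of the α1,3 family came from FUT10 (2.14 and 1.95, 1.96 and 2.24) and FUT11 (5.11 and 4.81, 4.60 and 3.12). The linkage these genes make was not measured, so this share cannot be read as that of the α1,3 linkage. The summed RPKM overlapped for the α1,3 family (7.27 and 6.89, 7.03 and 5.57) and the protein O-fucosyltransferases (28.7 and 27.3, 29.6 and 28.4). That of the α2,8 genes was apart (1.65 and 1.65, 1.18 and 1.43).

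**Figure D3:**
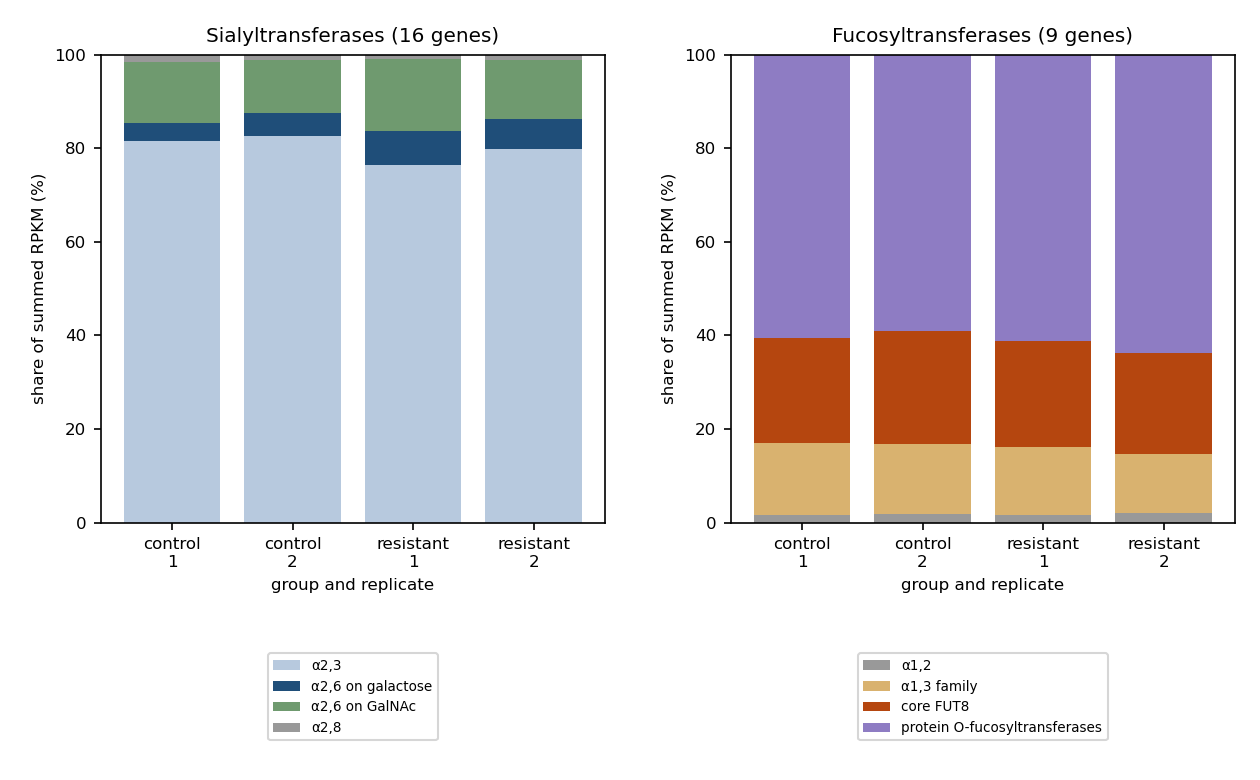
Share of summed RPKM (percent, vertical axis) taken by each linkage class among the 16 sialyltransferase members (left) and the 9 fucosyltransferase members (right), 1 bar per library. The α2,6 genes acting on galactose, nearly all ST6GAL1, take 3.77% and 4.92% in the controls and 7.23% and 6.49% in resistant cells. The protein O-fucosyltransferases take between 59.0% and 63.8%.

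The 5 genes for α2,6 sialylation of GalNAc had differences in both directions. ST6GALNAC5, a ganglioside sialyltransferase gene, had 12 and 10.1 CPM in control replicates 1 and 2 and 2.63 and 6.05 CPM in resistant replicates 1 and 2. Both resistant libraries were below both controls but differed from each other. Its log2 fold change was -1.35 ± 0.38 (SE, edgeR adjusted p = 0.161), between -2.07 without resistant replicate 2 and -0.87 without resistant replicate 1. DESeq2 called it lower (adjusted p = 0.00784). It passed edgeR without a filter on low counts (adjusted p = 3.48e-04), and with either control left out (adjusted p = 0.0459 for replicate 1 and 0.0232 for replicate 2).

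ST6GALNAC3, of the same subfamily, had 7.88 and 16.7 CPM in the controls and 22.2 and 19.1 CPM in resistant cells (log2 0.75, 95% interval -0.03 to 1.53, edgeR adjusted p = 0.392). In the libraries the RPKM ratio of ST6GALNAC3 to ST6GALNAC5 came to 0.550 and 1.39 in the controls, against 7.10 and 2.65 in resistant cells. That the ratio lay apart follows from the genes themselves, which lay apart in opposite directions, and adds nothing to them. Both genes lie on chromosome 1. ST6GALNAC4, the most abundant of the 5 per length, had 27.4 and 28.5 CPM in the controls and 35.8 and 34.0 CPM in resistant cells (log2 0.32, 95% interval -0.07 to 0.71).

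ST6GALNAC2, which sialylates the O-glycan core, had 168 and 180 counts in the controls and 84 and 95 in resistant cells, or 2.35, 2.08, 1.18 and 1.15 CPM. Its groups were apart (log2 -0.92 ± 0.32 SE, edgeR adjusted p = 0.248). Other gene models cover 59.1% of its exonic bases, and reads in shared stretches were left out of the counts, so its level is understated. The same holds for ST6GALNAC6 (47.0% covered), which had 0.531 to 1.01 CPM and groups that overlapped.

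The α2,8 genes were low. ST8SIA4, one of the enzymes that build polysialic acid, had 10.8 and 11.2 CPM in the controls and 7.02 and 9.93 CPM in resistant cells (log2 -0.38, 95% interval -0.95 to 0.20, edgeR adjusted p = 0.584). ST8SIA1 encodes the synthase of GD3, a ganglioside typical of melanoma. It had 3.52 and 3.03 CPM in the controls against 3.84 and 2.12, with groups that overlapped (log2 -0.14, 95% interval -0.95 to 0.68). ST8SIA5, which extends complex gangliosides, had 11 to 22 counts per library.

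The supply of activated sialic acid showed small differences and no calls among 5 genes. CMAS, which makes CMP-sialic acid, was the most abundant of them per length and had 57.9 and 46.7 CPM in the controls and 40.1 and 42.6 CPM in resistant cells (log2 -0.34, 95% interval -0.76 to 0.08). NANP, the phosphatase step before it, had 25.7 and 15.0 CPM against 13.2 and 13.7 (log2 -0.60, 95% interval -1.23 to 0.03). GNE, which encodes the enzyme that starts the pathway, had 116 and 120 CPM against 103 and 96.7 (log2 -0.24, -0.61 to 0.13).

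In these 3 genes both resistant libraries were below both controls, as in 22.2% of all tested genes, and no difference passed. NANS, the synthase gene, overlapped between the groups (71.5 to 85.7 CPM). The CMP-sialic acid transporter gene SLC35A1 had 3.88 to 4.54 CPM, with 55.5% of its exonic bases under another gene model.

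The 2 sialidase genes, whose products remove sialic acid, did not pass. NEU3, of the plasma membrane, had 51.8 and 43.5 CPM in the controls and 40.6 and 48.1 CPM in resistant cells (log2 -0.10, 95% interval -0.53 to 0.32). NEU1, the lysosomal sialidase gene, had 19.5 and 23 CPM against 23.1 and 27.0 (log2 0.24, -0.21 to 0.69). The groups overlapped for NEU3, and for NEU1 both resistant libraries were above both controls.

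**Figure D4:**
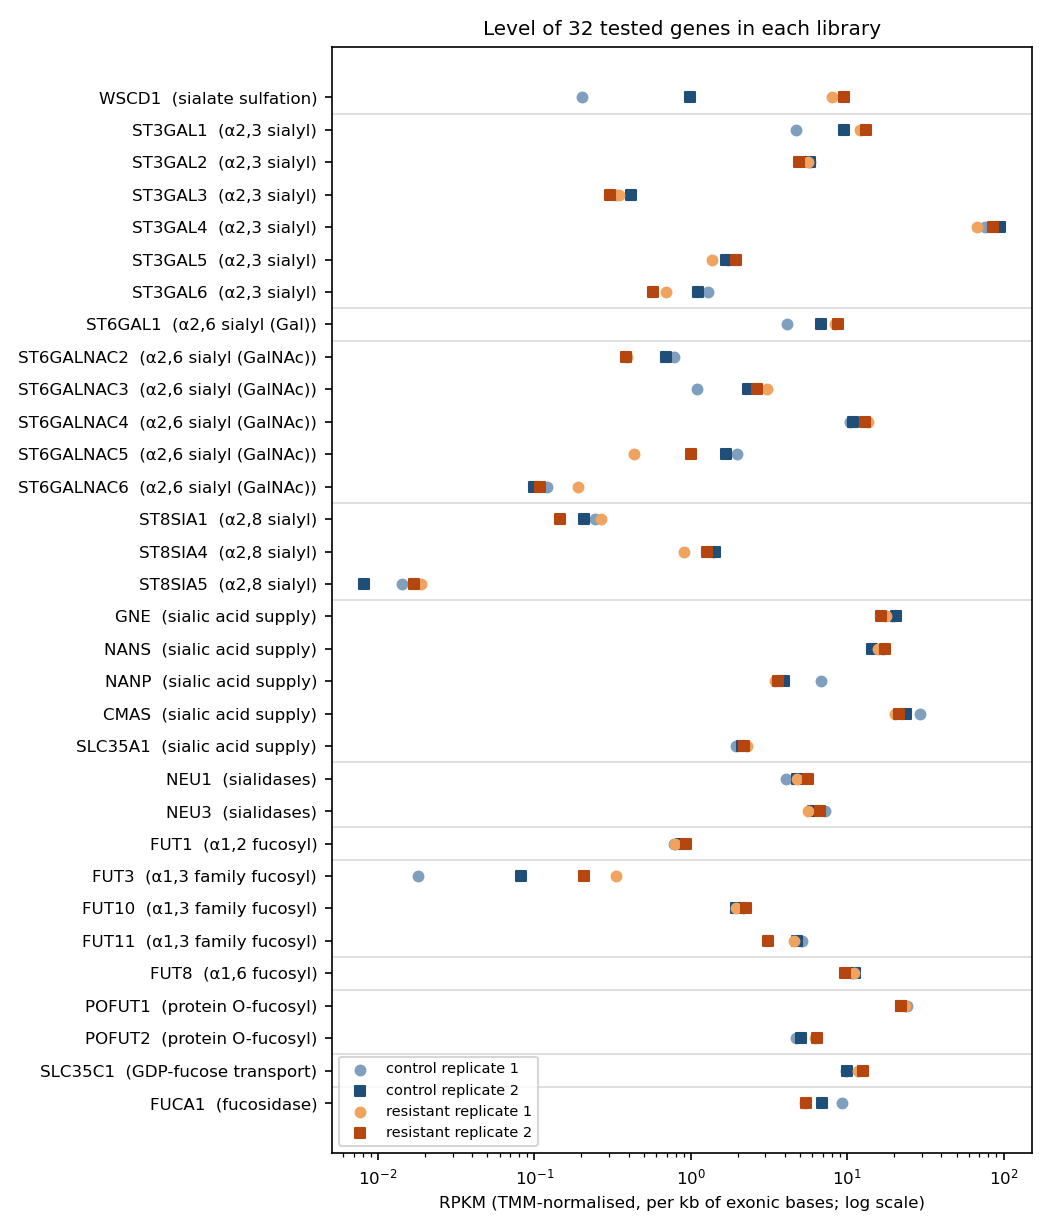
RPKM (log scale, horizontal axis) of the 32 tested members in each of the 4 libraries (1 symbol per library), grouped by role. WSCD1 lies at 0.202 and 0.994 in the controls and 8.02 and 9.48 in resistant cells, and ST3GAL4 is the highest gene in each library, between 67.7 and 95.1.

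On the fucose side the abundant genes stood close together across the libraries. POFUT1, which puts fucose on the EGF-like repeats of Notch and other proteins, had 154 and 142 CPM in the controls and 150 and 141 CPM in resistant cells (log2 -0.03, 95% interval -0.40 to 0.35, edgeR adjusted p = 0.969). FUT8, which adds core fucose to N-glycans, had 74.5 and 78.0 CPM against 76.6 and 67.2 (log2 -0.09, 95% interval -0.47 to 0.30, edgeR adjusted p = 0.891). The groups overlapped in both genes. The antisense gene FUT8-AS1, which covers 11.8% of the FUT8 exons, had 138 to 181 counts.

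POFUT2, which acts on thrombospondin repeats, had 27.4 and 29.8 CPM in the controls and 36.3 and 37.6 CPM in resistant cells (log2 0.37, 95% interval -0.02 to 0.76, edgeR adjusted p = 0.399). SLC35C1, the GDP-fucose transporter gene, had 38.0 and 38.9 CPM against 45.4 and 49.3 (log2 0.30, -0.08 to 0.68, edgeR adjusted p = 0.497). In both genes the resistant libraries were above the controls by more than the replicates differed, but neither passed. By RPKM share of the fucosyltransferase members, POFUT1 took 50.6% and 48.0% in the controls and 48.3% and 49.4% in resistant cells.

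FUCA1, the lysosomal fucosidase gene, had 19.1 and 14.1 CPM in the controls and 11.1 and 11.2 CPM in resistant cells. Its groups were apart, and the gap between the controls was larger than that between control replicate 2 and the resistant libraries. The log2 fold change was -0.58 ± 0.22 (SE, edgeR adjusted p = 0.311), -0.34 without control replicate 1 and -0.78 without control replicate 2.

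FUT3, the Lewis blood group fucosyltransferase gene, rested on few reads: 4 and 22 counts in the controls and 73 and 53 in resistant cells, or 0.0559, 0.254, 1.03 and 0.641 CPM. Both resistant libraries were above both controls. Its log2 fold change was 2.38 ± 0.69 (SE, edgeR adjusted p = 0.173), between 1.71 without control replicate 1 and 3.86 without control replicate 2, where it passed edgeR (adjusted p = 0.00666). It also passed without a filter on low counts (adjusted p = 0.00135). FUT3 shares long near-identical stretches with FUT5 and FUT6, and reads that mapped to several places were left out, so its count is uncertain. FUT5 had 0, 0, 11 and 2 counts, and FUT6 9 to 19.

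Of the other fucosyltransferases, FUT11 was the most abundant α1,3 family member per length, with 25.2 and 23.7 CPM in the controls and 22.7 and 15.4 CPM in resistant cells (log2 -0.36, 95% interval -0.89 to 0.17). FUT10 had 10.4 to 12 CPM with groups that overlapped. The linkage that FUT10 and FUT11 make was not measured, and their place in the α1,3 family does not settle it. FUT1, which makes the H antigen, had 3.41 and 3.79 CPM against 3.42 and 4.08 (log2 0.06, -0.57 to 0.69). FUT4 and FUT7, also of the α1,3 family, were hardly detected. FUT4 had 0, 6, 2 and 2 counts and FUT7 0, 6, 16 and 0, and 35.8% of FUT7 lies under other gene models.

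**Figure D5:**
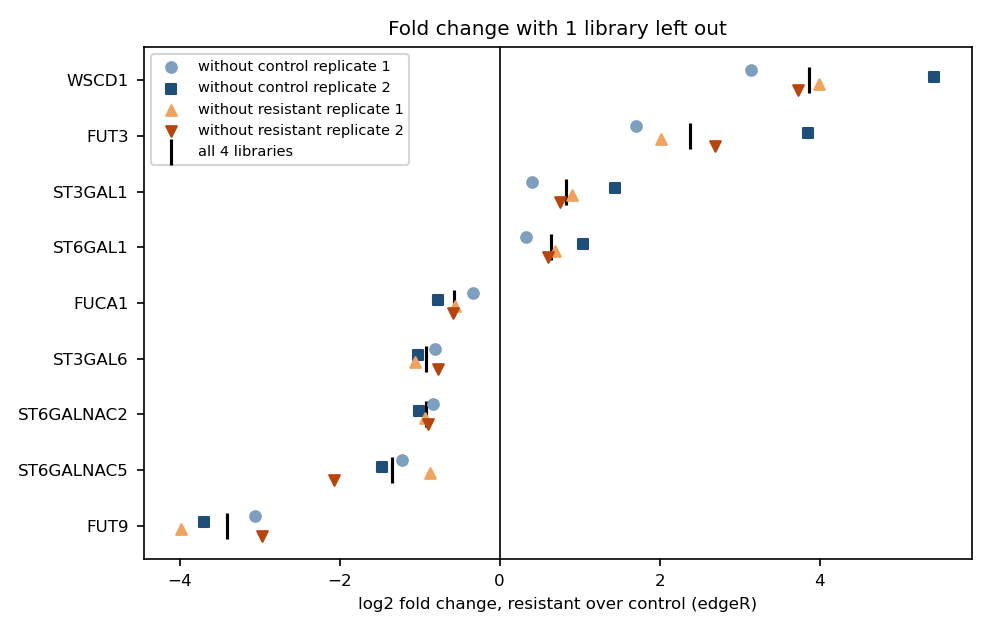
Fitted log2 fold change (resistant over control, horizontal axis) of WSCD1, of the 7 members with an unadjusted p under 0.05 and of FUT9, with all 4 libraries (black bars) and with each library left out (symbols). WSCD1 ranges from 3.14 to 5.44 and ST6GALNAC5 from -2.07 to -0.87; no sign changes among these 9 genes.

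A further 60 genes of the same pathways, which supply nucleotide sugars, build the acceptor chains, extend O-fucose, turn over sialic acid, make the sulfate donor or carry these glycans, were read in the same fit. Of the 55 tested, 1 fell and 0 rose with edgeR (background 1.09%), while 18 had an unadjusted p under 0.05 (background 13.5%), 9 higher (6.14%) and 9 lower (7.32%). DESeq2 called 6 (background 5.2%), namely FUT9, PAPSS2, B4GALT1, GCNT1, MFNG and NCAM1. Their median log2 fold change was -0.03.

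The 1 gene past the threshold was FUT9, an α1,3 fucosyltransferase gene that makes the Lewis x structure and is known mostly from neural tissue. It had 136 and 106 counts in the controls and 14 and 8 in resistant cells, or 1.90, 1.22, 0.197 and 0.0968 CPM. Both resistant libraries were well below both controls. FUT9 fell by 3.41 ± 0.52 on the log2 scale (SE, edgeR adjusted p = 0.036), a 10.6-fold difference, and did not pass without resistant replicate 2 (log2 -2.97, adjusted p = 0.183). Of the 11 family genes outside the members 6 were tested, and ST8SIA2, ST8SIA3, NEU2, NEU4 and FUT5 had at most 11 counts in any library.

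Among 4 genes of the sulfate donor pathway, none passed edgeR. PAPSS2, which makes the donor that sulfotransferases such as WSCD1 use, had 29.5 and 59.8 CPM in the controls and 75.5 and 95.6 CPM in resistant cells. Its log2 fold change was 0.94 ± 0.32 (SE, edgeR adjusted p = 0.239; 0.52 with control replicate 1 left out and 1.54 with control replicate 2 left out), and DESeq2 called it higher (adjusted p = 0.0393). PAPSS1 had 72.1 and 54.2 CPM against 47.3 and 47.5 (log2 -0.41, edgeR adjusted p = 0.403).

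Of 10 nucleotide sugar genes none passed edgeR, and 2, both higher, had an unadjusted p under 0.05 (background 6.14%). GFPT1, the entry enzyme of hexosamine synthesis, had 107 and 212 CPM in the controls and 260 and 323 CPM in resistant cells (log2 0.87 ± 0.31 SE, edgeR adjusted p = 0.267). Leaving out control replicate 1 gave 0.46, and leaving out control replicate 2 gave 1.45, where it passed edgeR (adjusted p = 0.00108), as it did without a filter on low counts (adjusted p = 6.65e-04). PGM3, further along that route, had 28 and 24.8 CPM against 43.8 and 33.3 (log2 0.55, edgeR adjusted p = 0.281). The GDP-fucose genes GMDS, GFUS, FCSK and FPGT had log2 fold changes between -0.03 and 0.15.

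Of 19 genes that build acceptor chains none passed edgeR, with 4 higher (background 6.14%) and 4 lower (7.32%) at an unadjusted p under 0.05. B4GALT1, which lays down the galactose that ST6GAL1 caps, had 110 and 144 CPM in the controls and 213 and 194 CPM in resistant cells (log2 0.68 ± 0.19 SE, edgeR adjusted p = 0.159, DESeq2 adjusted p = 0.0483). GCNT1, which branches O-glycans, had 6.26 and 3.82 CPM against 9.13 and 9.89 (log2 0.92 ± 0.29 SE, edgeR adjusted p = 0.21, DESeq2 adjusted p = 0.0483).

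All 4 genes that extend O-fucose were tested and none passed edgeR, with 3 lower at an unadjusted p under 0.05 (background 7.32%) and a list median of -0.86. MFNG had 5.45 and 7.78 CPM in the controls and 3.50 and 3.19 CPM in resistant cells (log2 -0.98 ± 0.28 SE, edgeR adjusted p = 0.166). DESeq2 called MFNG lower (adjusted p = 0.0424), and so did edgeR without control replicate 1 (adjusted p = 0.026). LFNG, a second Fringe gene acting on Notch, had 14.4 and 7.38 CPM against 5.64 and 5.39 (log2 -0.98 ± 0.33 SE, edgeR adjusted p = 0.243). It had a log2 fold change of -0.42 without control replicate 1, and passed edgeR without control replicate 2 (adjusted p = 0.00458).

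Among 6 carriers of these glycans none passed edgeR, with 2 higher (background 6.14%) and 1 lower (7.32%) at an unadjusted p under 0.05. NCAM1, the main carrier of polysialic acid, had 8.61 and 12 CPM in the controls and 21.2 and 22.4 CPM in resistant cells (log2 1.08 ± 0.23 SE, edgeR adjusted p = 0.0766; DESeq2 adjusted p = 0.00124). NRP2, which can also carry it, had 102 and 144 CPM against 201 and 179 (log2 0.63 ± 0.21 SE, edgeR adjusted p = 0.233; 0.40 without control replicate 1, and 0.90 without control replicate 2, where adjusted p = 0.0184). None of the 6 sialic acid turnover genes had an unadjusted p under 0.05.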

How the data were processed

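Strand-specific polyA libraries were sequenced in pairs, per the labels' protocols. The files hold counts per gene as deposited, not normalized, made by the authors with featureCounts 2.0.0 on duplicate-marked alignments against GENCODE release 42, per the file headers. STAR and GRCh38 are named in the submitters' processing notes. By that program's defaults strand was ignored, mates were counted singly, and reads of several genes or places were dropped. The authors' deposited table of log2 fold changes (a log base read from its match to the counts) names no comparison and entered no test.

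Genes kept by filterByExpr (24961) were scaled with TMM and tested with edgeR 4.0.16 (quasi-likelihood, group alone, two-sided, Benjamini-Hochberg, R 4.3.3). DESeq2 1.42.0 was an alternative. SE is the fold change over the square root of F, and 95% intervals use the fit's degrees of freedom (2 residual, 5.69 prior). RPKM divide TMM-scaled CPM by the union of exons. The intervals include the spread between libraries, and floors of 3 counts cover counting error only. The fit was tested on simulated data with the same dispersion (spread between libraries) for every gene and no deviating library. That setting differs from these data, where leaving out 1 library moved the number of calls widely. The protein comparison that had been planned was not run, as protein sequences were not used here.

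Members and lists were chosen with earlier results of these data known. Values in every library are given for WSCD1, WSCD2, members with an unadjusted p under 0.05 and the most abundant of each role; from the other lists, called genes or else up to 2 with the lowest unadjusted p and at least 1 CPM. Other genes named were chosen after their values were seen. Of 36 members, 30 matched a RefSeq promoter; FUT10, FUT11, ST3GAL1, ST3GAL2, ST6GALNAC2 and ST8SIA5 did not.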

Additional observations from a re-analysis of the deposited data

How the results depend on the processing

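The number of called genes moved widely, and that of the members with it. Over all genes it was 272, 1866 without a filter on low counts, 1229 with DESeq2, 64 with the replicate block and 16 to 2166 with 1 library left out (lowest without resistant replicate 2, highest without control replicate 2). Members other than WSCD1 gave 0 calls, 5 without a filter, 2 with DESeq2 and 0 to 6 with 1 library left out, and 2 to 10 had an unadjusted p under 0.05 in those fits. Pathway genes outside the members gave 1 call, 9 without a filter, 6 with DESeq2, 0 with the replicate block and 0 to 10 with 1 library left out. With 1 library left out the spread comes from the other group and the lone library is assumed to vary alike. The cause of these shifts was not tested. The fits also tested different numbers of genes. These were 24961 in the main fit and with the replicate block, 44966 without a filter and 23622 with DESeq2. With 1 library left out they were 26580 to 27700. Of all genes, 1.09% were called in the main fit and 5.2% with DESeq2. In the other fits the counts of members and pathway genes have no such share beside them. Those counts cannot show whether members or pathway genes moved more than all genes did. Leaving out 1 library changed the sign of the log2 fold change in 5 named genes, none of them called: ST3GAL4 to 0.024 without control replicate 2 and 0.021 without resistant replicate 1 (lowest -0.336), NEU3 to 0.029 without control replicate 1 and 0.021 without resistant replicate 1 (lowest -0.229), FUT1 to -0.012 without control replicate 1 and -0.073 without resistant replicate 2 (highest 0.188), FUT8 to 0.0082 without resistant replicate 2 (lowest -0.175), and POFUT1 to 0.031 without control replicate 1 and 0.017 without resistant replicate 2 (lowest -0.079). Summed as CPM, the share of α2,6 genes acting on galactose differed by 4.04 percentage points in place of 2.52.

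The labels do not say whether equal replicate numbers pair the libraries. Same-numbered deviations from the group means correlated at 0.00608 across 10089 genes, which cannot show whether the libraries were handled in pairs. With the replicate block FUT9 had an edgeR adjusted p of 0.0634.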

Other observations

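The authors' deposited table of log fold changes, which names no comparison, lists 1533 gene symbols, each with a value of at least 0.396 in size. Of 1388 symbols also tested here, 1386 had the same sign in the authors' deposited table and in the fit, with a median difference of 0.0262 in size. The list was deposited with these same libraries and leaves out smaller values. Its match in sign is therefore no independent support for the fold changes. The 1388 symbols stand against 24961 genes tested here. The authors' deposited table lists 2 of the 36 members, WSCD1 at 3.84 and ST6GALNAC5 at -1.30. WSCD1 is on the member list because of its rise. Of the 60 pathway genes outside the members, the authors' deposited table lists 7. They are FUT9 at -3.48, MGAT4A at 1.24, NCAM1 at 1.05, GCNT1 at 0.91, B4GALT1 at 0.67, B4GALT6 at -0.56 and L1CAM at -0.47.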
